A study of Mus musculus with 2 samples.

Results

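The 10 genes described here encode transcription factors of the pluripotency network: Pou5f1, Sox2, Nanog, Zfp42, Esrrb, Klf2, Klf4, Klf5, Tfcp2l1 and Prdm14. They were taken by name out of 21951 protein-coding genes of GENCODE mouse release 21, and each was asked whether the chromatin remodeler SRCAP was called as a peak at its promoter, in its body or in the 20 kb upstream. SRCAP is the ATPase of a complex that replaces histone H2A with the variant H2A.Z in nucleosomes, above all around transcription start sites (TSSs). In mouse embryonic stem cells (mESCs), OCT4 (the product of Pou5f1), SOX2 and NANOG bind many of the same enhancers, including their own, and Klf, Esrrb, Tfcp2l1, Prdm14 and Zfp42 genes belong to the naive state that LIF and inhibitors of GSK3 and MEK hold in place.

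Both samples belonged to 1 group, SYAT mESCs in the control condition, analysed in 2 replicates by CUT&Tag, in which an antibody directs the Tn5 transposase to a chromatin protein. SYAT cells derive from CGR8 mESCs: both alleles of Srcap carry YPet-AID (SRCAP-YA), a fluorescent protein fused to an auxin-inducible degron, and the plant receptor OsTir1 is expressed from a transgene. The line goes back to 1 homozygous clone, later selected by sorting for efficient degradation, and the cells were kept with auxinole, which blocks the auxin response (200 nM per the labels, micromolar rather than nanomolar in the study's methods), and moved to serum and LIF, without CHIR99021 and PD184352, 3 days before the experiment. The antibody was anti-GFP ab290, which also binds YPet. The study describes its replicates in general as independently grown cells and the CUT&Tag experiment as done in duplicate, and with 1 group there was no contrast to test. A peak list holds no RNA, so the labelled cell type could not be checked against marker genes.

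The authors deposited 6158 peaks for replicate 1 and 12958 for replicate 2, with a whole-number score that was read as 10 times the −log10 q-value and starts at 13 in both lists. Median scores were 32 and 36. Of the peaks, 56.0% in replicate 1 and 26.6% in replicate 2 overlapped a peak of the other replicate. Sequencing depth is unknown and q-values depend on it, so scores were not compared between the lists, percentiles within a list are given beside them, and a gene without a peak was not called at this depth rather than free of SRCAP-YA.

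The sequences under 7 peaks are given first, because the results turn on where these peaks lie. They are the parts before the TSS of the 3 peaks that contained a TSS, the upstream peaks of the 3 core factors, and the only site that both replicates called within 20 kb of Klf4. All are GRCm38 (mm10) reference sequence, written 5′ to 3′ on the strand of the gene. Capitals mark matches on either strand to 1 of 9 motifs. The longer ones are the octamer motif ATGCAAAT, the ESRRB motif CAAGGTCA, the KLF motif GGGNGTGG, the STAT motif TTCCNGGAA and the YY1 motif AANATGGC. The shorter ones are the SOX motif CATTGT, the NFY motif CCAAT, the GC box GGGCGG and the TATA motif TATAAA. The KLF and GC box motifs overlap at some sites.
Zfp42 promoter (chr8:43307010-43307259, minus strand): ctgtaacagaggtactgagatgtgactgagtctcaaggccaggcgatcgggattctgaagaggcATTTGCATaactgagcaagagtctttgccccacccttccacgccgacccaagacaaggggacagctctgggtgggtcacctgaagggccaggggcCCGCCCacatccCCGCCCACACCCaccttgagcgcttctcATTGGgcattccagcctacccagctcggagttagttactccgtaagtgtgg
Klf2 promoter (chr8:72318873-72319032, plus strand): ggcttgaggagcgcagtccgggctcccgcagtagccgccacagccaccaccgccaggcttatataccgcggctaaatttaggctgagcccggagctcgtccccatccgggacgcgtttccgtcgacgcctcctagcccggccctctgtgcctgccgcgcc
Tfcp2l1 promoter (chr1:118627838-118627944, plus strand): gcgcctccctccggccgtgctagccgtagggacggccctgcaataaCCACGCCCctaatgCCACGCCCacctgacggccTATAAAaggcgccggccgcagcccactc
Pou5f1 upstream peak (chr17:35504852-35505095, plus strand): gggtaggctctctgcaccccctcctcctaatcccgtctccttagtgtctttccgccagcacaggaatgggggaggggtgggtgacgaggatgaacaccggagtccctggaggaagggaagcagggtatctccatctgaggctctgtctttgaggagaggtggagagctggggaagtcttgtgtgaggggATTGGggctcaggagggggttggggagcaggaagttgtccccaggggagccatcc
Sox2 upstream peak (chr3:34649316-34649615, plus strand): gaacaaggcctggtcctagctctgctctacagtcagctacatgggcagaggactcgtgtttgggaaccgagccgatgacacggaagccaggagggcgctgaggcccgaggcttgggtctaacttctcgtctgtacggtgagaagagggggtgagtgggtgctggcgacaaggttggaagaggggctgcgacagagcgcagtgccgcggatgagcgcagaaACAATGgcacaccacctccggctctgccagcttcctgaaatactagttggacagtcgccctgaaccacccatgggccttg
Nanog upstream peak (chr6:122702613-122702912, plus strand): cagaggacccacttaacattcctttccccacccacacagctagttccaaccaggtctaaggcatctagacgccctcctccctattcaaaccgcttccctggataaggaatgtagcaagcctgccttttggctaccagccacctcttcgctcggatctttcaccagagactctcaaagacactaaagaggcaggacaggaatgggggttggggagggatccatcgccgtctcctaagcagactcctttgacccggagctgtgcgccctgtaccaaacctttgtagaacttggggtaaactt
Klf4 downstream site (chr4:55514847-55515056, minus strand): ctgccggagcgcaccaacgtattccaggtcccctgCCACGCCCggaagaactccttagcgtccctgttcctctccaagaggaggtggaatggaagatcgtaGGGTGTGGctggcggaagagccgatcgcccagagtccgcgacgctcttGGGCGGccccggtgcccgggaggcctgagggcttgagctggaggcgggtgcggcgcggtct

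The stretch from Zfp42 held an octamer, a KLF motif, a CCAAT motif on the opposite strand and 2 GC boxes within 250 bases. That from Klf2 had none of the 9 motifs and 18 CpG dinucleotides in 160 bases, and that from Tfcp2l1 had 2 KLF motifs and a TATA motif. The Pou5f1 peak held 1 NFY motif, the Sox2 stretch 1 SOX motif and the Nanog stretch none. The Klf4 site held 20 CpGs in 210 bases, 2 KLF motifs and 1 GC box. Such matches are common: among the peaks of replicate 2, in the 300 bp around their midpoints, 38.4% held a GC box, 33.3% the NFY motif and 15.7% the KLF motif, whereas the octamer was found in 1.43%. The octamer at Zfp42 lies outside that 300 bp window and outside the replicate 1 peak. In that window the Klf2 peak held 1 GC box, whereas the stretch printed above, which stops before the TSS, held none.

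In replicate 2, 5 of the 10 genes had a promoter peak, namely Pou5f1, Sox2, Zfp42, Klf2 and Tfcp2l1. A promoter here reaches 1000 bp before and 500 bp after any TSS of the gene. By the same count 30.4% of all protein-coding genes had one. In replicate 1, Zfp42 alone had a promoter peak, against 15.7% of all genes. Zfp42 was thus also the only one of the 10 with a promoter peak in both replicates (12.1% of all genes), and the 5 genes of replicate 2 were those with a peak in either (34.0%). The remaining 5 genes, Nanog, Esrrb, Klf4, Klf5 and Prdm14, belonged with the 66.0% of genes that had no promoter peak in either list. With 10 genes, 1 of 10 in replicate 1 is near the share of all genes, while 5 of 10 in replicate 2 is above it, and neither was tested.

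At the 10 genes, peaks in range outside the promoter windows were found in replicate 2 only. Nanog, Zfp42, Esrrb and Prdm14 had such a peak in the gene body or within 20 kb upstream in replicate 2, against 23.8% of all genes. In replicate 1 none of the 10 had one (12.1% of all genes), and so none had one in both (7.69% of all genes), and the same 4 genes had one in either (28.2%). In all, 5 such peaks lay in the 457.8 kb searched around the 10 genes, which is 1.09 per 100 kb, while the density over all protein-coding genes was 0.468 per 100 kb in replicate 2. In replicate 1 the density was 0 at the 10 genes and 0.216 per 100 kb over all protein-coding genes, so the 10 genes were above the density of all genes in one list and below it in the other. Only Klf4 and Klf5 had no peak in the whole range in either list.

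**Figure D1:**
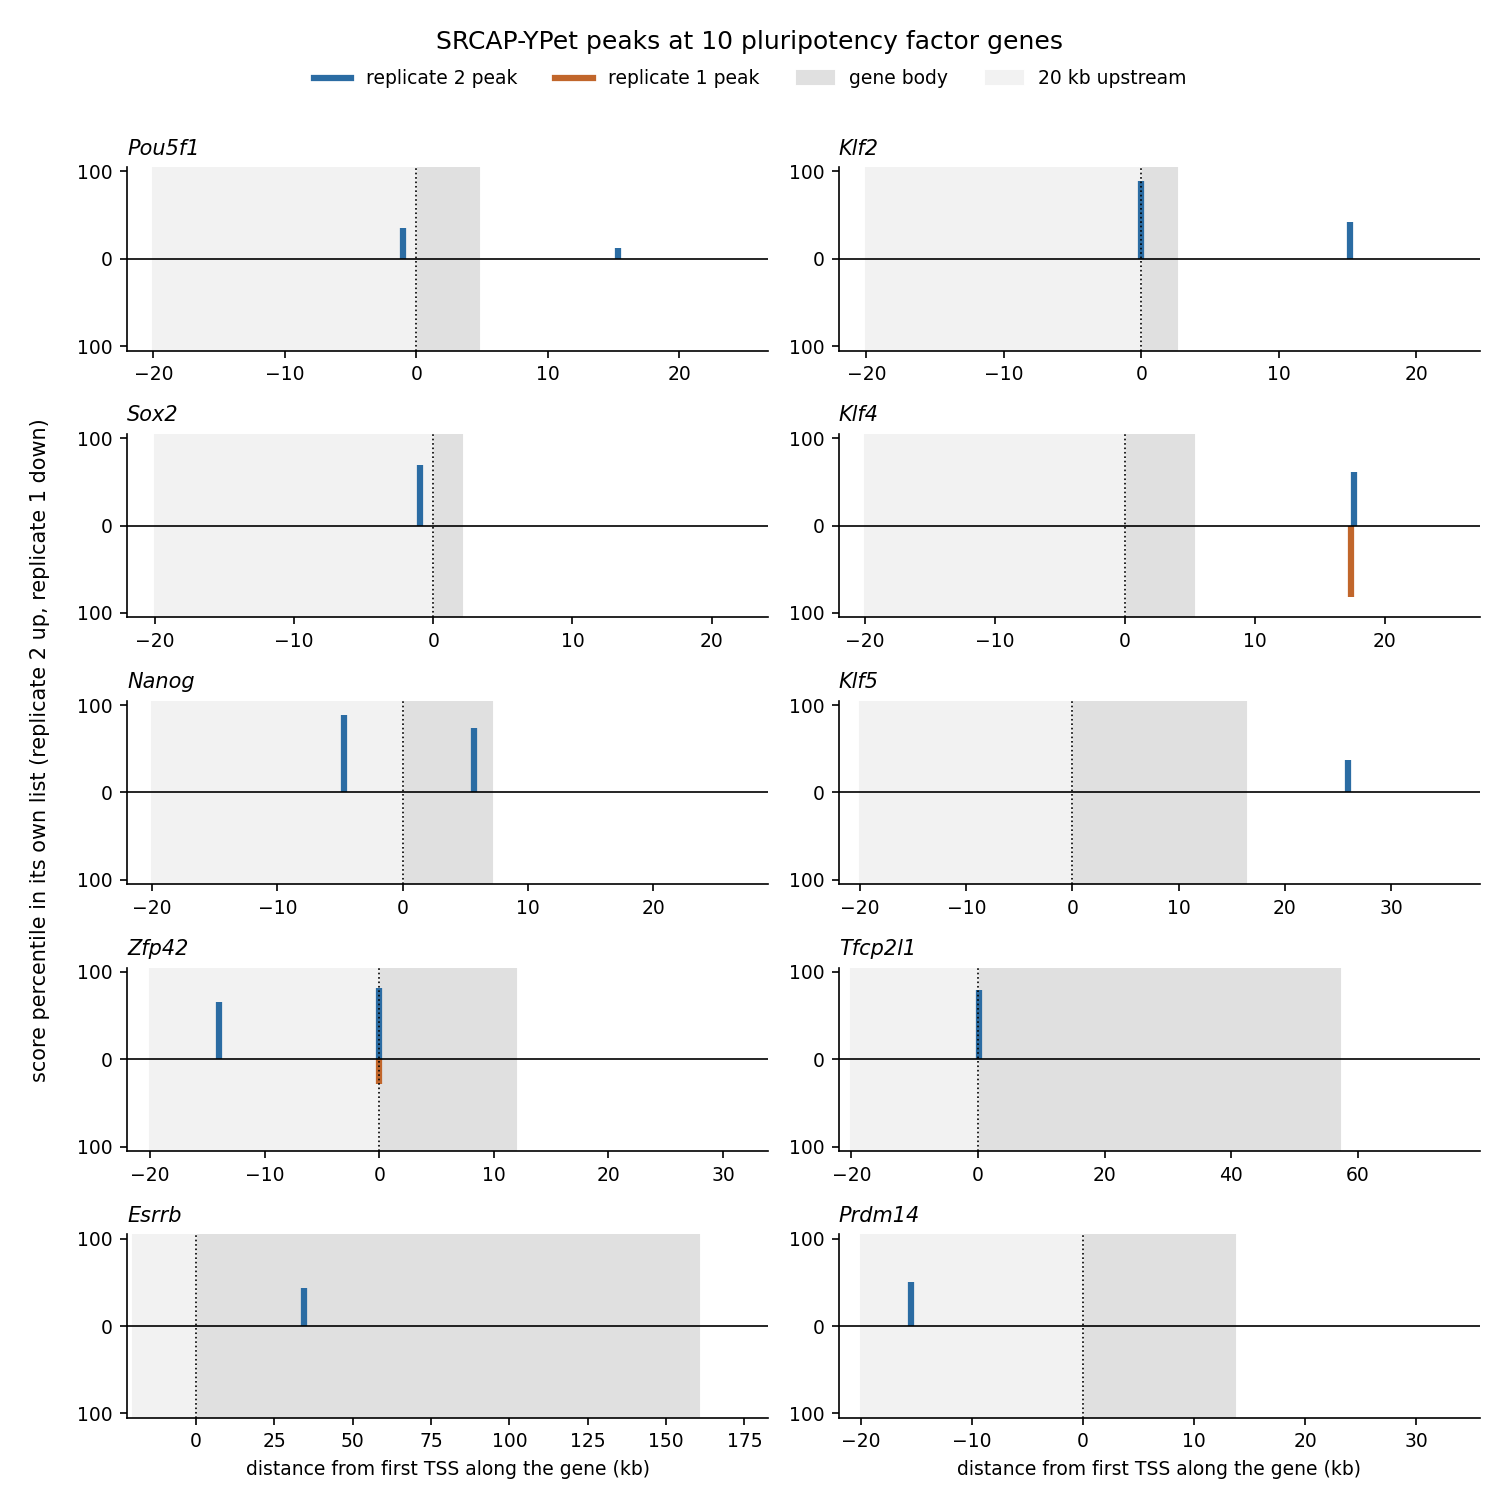
Peaks at the 10 genes, 1 panel a gene, plotted at the distance of their midpoint from the first TSS along the gene (kb, scales differ) with the score percentile of each peak in its own list as height, replicate 2 above and replicate 1 below the line; bar width is not to scale. Replicate 1 peaks are present only at the Zfp42 TSS and downstream of Klf4, at percentiles of 28.2 and 82.3.

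Among the core factors, Pou5f1, a POU domain gene at chr17:35506018-35510772, had a peak at chr17:35504852-35505095 in replicate 2, with a score of 29 (percentile 35.7 of the list). It spanned -1166 to -923 bp from the first TSS, so it reached the promoter window with its inner end only and contained no TSS. Of the promoter peaks in that list, it stood at percentile 23.7, the lowest of the 5. The nearest replicate 1 peak was 65535 bp away from any Pou5f1 TSS. In replicate 2, peaks within 5 percentile points of its score overlapped a replicate 1 peak in 14.4% of cases, so a peak of this score was usually not in both lists.

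Sox2, which encodes the HMG-box partner of OCT4 and is a gene of 2057 bp at chr3:34650405-34652461, lies within the long transcript Sox2ot. Its peak in replicate 2, at chr3:34649222-34649709, had a score of 49 (percentile 69.7) and a width of 488 bp. From the GENCODE TSS the peak spanned -1183 to -696 bp. RefSeq places the start at -410 bp on this scale, and from there the peak spanned -773 to -286 bp. On both annotations it lay before the gene and held no start. Replicate 1 had no peak within 569004 bp of the TSS, so the Sox2 locus was empty in that list over a wide range.

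Nanog, a homeobox gene at chr6:122707489-122714633, had no promoter peak, and its 2 peaks in replicate 2 flanked the promoter on either side. The upstream one, chr6:122702492-122703032, spanned -4997 to -4457 bp from the first TSS and had a score of 79 (percentile 89.0). It shares this score with the Klf2 promoter peak, the highest among the 10 genes. The other, chr6:122712892-122713376, had a score of 53 (percentile 73.7) and lay 5403 to 5887 bp downstream of the first TSS, over an exon that includes coding sequence. Of its 37-mers, 23.2% also occurred elsewhere in the assembly, while all of those in the upstream peak were unique. Among replicate 2 peaks of a score close to 79, 55.5% overlapped a replicate 1 peak, but no replicate 1 peak lay within 103346 bp of a Nanog TSS. The nearest one, toward Foxj2, had a score of 151 and was also called in replicate 2, with a score of 174.

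Of the naive factor genes, Zfp42 (also Rex1, a zinc finger gene related to Yy1) at chr8:43295063-43306980 on the minus strand had the only promoter peaks in both lists. In replicate 1 the peak was 243 bp wide, at chr8:43306839-43307081, and in replicate 2 it was 567 bp wide, at chr8:43306693-43307259. The narrower peak lay entirely inside the wider one, and both contained the TSS, with midpoints 20 bp and 4 bp downstream of it. The score was 23 in replicate 1 (percentile 28.2) and 64 in replicate 2 (percentile 82.0), so the site was a low-scoring one in the list of replicate 1 and a high-scoring one in that of replicate 2. Of the 37-mers under the peak, 22.7% in replicate 1 and 8.85% in replicate 2 occurred elsewhere in the assembly. A further replicate 2 peak, chr8:43320697-43321234, with a score of 46 (percentile 65.9), had its midpoint at -13985 bp from the first TSS, between genes.

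Klf2, at chr8:72319033-72321656, encodes a zinc finger factor of the Krüppel-like family. Its replicate 2 peak, chr8:72318873-72319219, was 347 bp wide, spanned -160 to 186 bp and contained the TSS. With a score of 79 (percentile 89.0, and 84.5 among promoter peaks) it was the highest of the promoter peaks of the 10 genes. Tfcp2l1, at chr1:118627945-118685168, encodes a CP2 family factor, and its replicate 2 peak, chr1:118627838-118628270, with a score of 60 (percentile 79.4), spanned -107 to 325 bp and also contained a TSS. Replicate 2 peaks of a score close to that of Klf2 overlapped a replicate 1 peak in 55.5% of cases, and those close to that of Tfcp2l1 in 41.5%. In replicate 1 the nearest peak was 78301 bp from the Klf2 TSS and 63189 bp from a Tfcp2l1 TSS, so neither promoter was called there.

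Zfp42 and Klf2 are both on chromosome 8, which was denser in peaks than the other autosomes. The density there was 3.79 peaks per Mb (replicate 1) and 6.91 (replicate 2), against 2.34 and 4.99 on the other autosomes. Promoter peaks were called at 26.5% (replicate 1) and 41.4% (replicate 2) of its protein-coding genes, against 15.7% and 30.6% of those on the other autosomes. The part of this difference in the peaks at Zfp42 and Klf2 was not tested.

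Esrrb, an orphan nuclear receptor gene spread over 160512 bp at chr12:86361117-86521628, had 1 peak, in replicate 2. The peak lay in an intron at chr12:86395564-86395808, 34447 to 34691 bp downstream of the first TSS, with a score of 33 (percentile 43.4) and a width of 245 bp. The peak nearest to any of its TSSs in replicate 2 was 25836 bp away, so none of its 5 annotated starts was near one. Prdm14, at chr1:13113457-13127163 on the minus strand, encodes a PR domain factor that restrains FGF signalling and DNA methylation in mESCs. Its upstream peak in replicate 2, chr1:13142382-13143004, had a score of 36 (percentile 50.6) and a midpoint at -15530 bp. This peak overlapped an exon of the neighbouring gene Ncoa2 and lay 3937 bp from a TSS of that gene, so it lies within another gene.

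Klf4, at chr4:55527143-55532466 on the minus strand, and Klf5, at chr14:99298691-99315036, both encode Krüppel-like factors and had no peak in range. Beyond the end of Klf4, however, a site was called in both replicates. The peaks were chr4:55514847-55515206 in replicate 1, with a score of 53 (percentile 82.3), and chr4:55514579-55515056 in replicate 2, with a score of 43 (percentile 61.7). Their midpoints lay 12117 and 12326 bp past the gene end, and the part common to both was 210 bp long. No annotated gene overlapped them, and the TSS of the nearest other coding gene, Rad23b, was 164936 bp from the replicate 1 midpoint. It was the only place near the 10 genes, besides the Zfp42 TSS, where both lists had a peak within 20 kb of the gene. With 20 kb downstream included, 14.9% of all coding genes had a body, upstream or downstream peak in both replicates, so 1 of 10 is near that share. The range on the downstream side is not part of the count above. There, in replicate 2 alone, Klf2 had a peak with a score of 32, Klf5 one with a score of 30 and Pou5f1 one with a score of 19, the last inside Cchcr1, 1441 bp from a TSS of that gene.

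**Figure D2:**
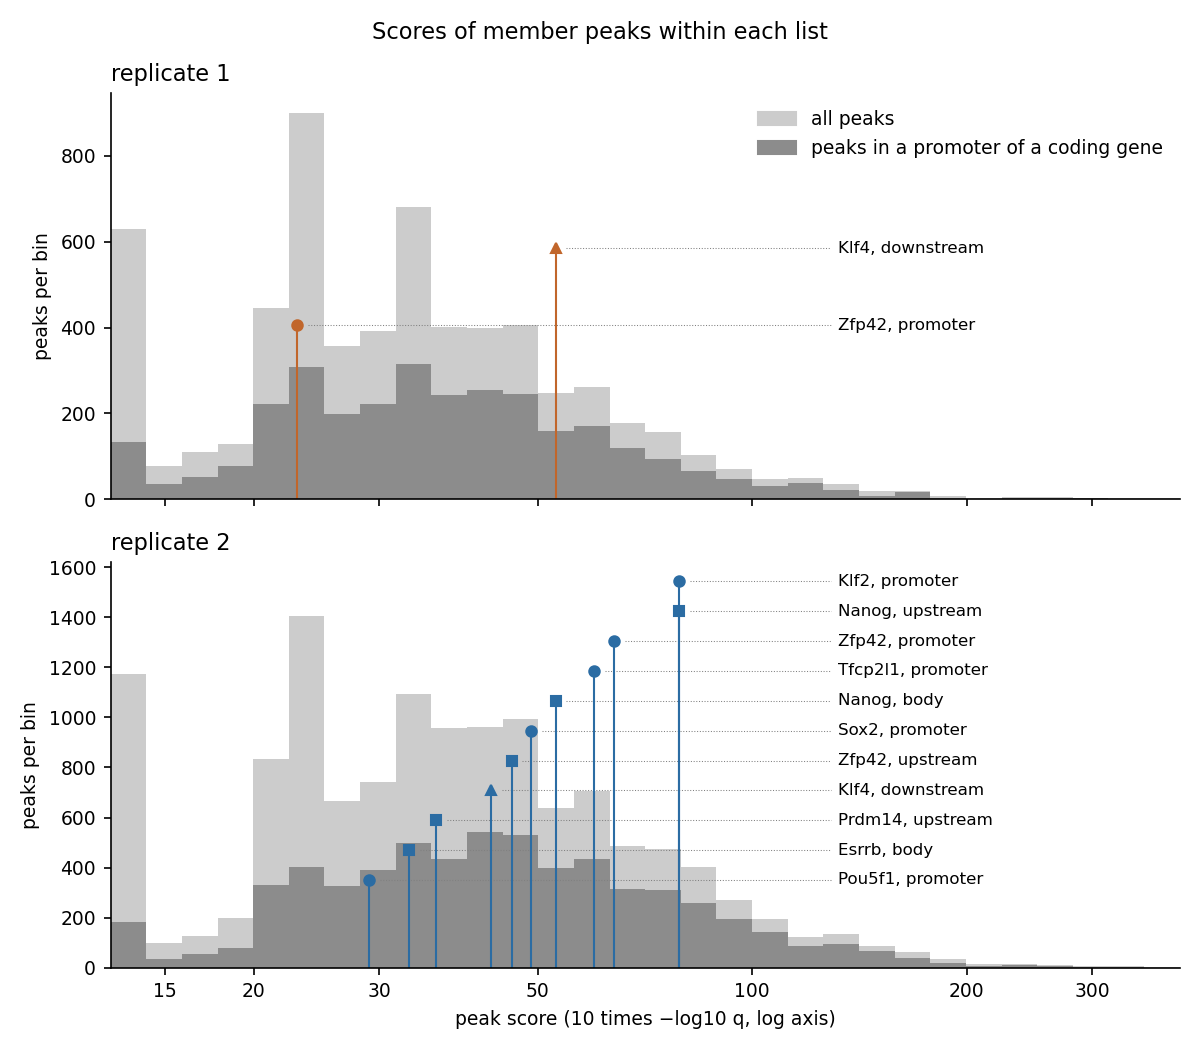
Peaks at the 10 genes within the score distribution of each list (x axis, score on a log axis; y axis, peaks per bin; all peaks light, those in a promoter of a protein-coding gene dark); circles are promoter peaks, squares body or upstream peaks and triangles the Klf4 downstream site, and marker height only spaces the labels. In replicate 2 the peaks of the 10 genes run from 29 to 79, on both sides of the median of 36.

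As a set, the promoter peaks of the 10 genes in replicate 2 had scores from 29 to 79 with a median of 60, beside a median of 43 over all promoter peaks of coding genes. The 5 body or upstream peaks had scores from 33 to 79 with a median of 46, beside 33 over all such peaks. The highest percentile in the list was 89.0. In replicate 1 the single promoter peak, at Zfp42, had a score of 23 beside a median of 35. A TSS lay inside the promoter peak at 3 of the 5 genes in replicate 2. Over all coding genes with a promoter peak the share was 67.7%, so 3 of 5 is near it. The peaks of Pou5f1 and Sox2, displaced upstream, held no TSS, as at 32.3% of all coding genes with a promoter peak. With a minimum score of 50, which keeps 1275 peaks of replicate 1 and 3879 of replicate 2, promoter peaks remained at Zfp42, Klf2 and Tfcp2l1 in replicate 2 (13.1% of all coding genes) and at none in replicate 1 (4.24%), and both Nanog peaks remained. With the list of replicate 2 cut to its 6158 highest scores, the length of the other, the Pou5f1, Esrrb and Prdm14 peaks dropped out. Promoter peaks were then left at 4 of the 10 genes and 19.2% of all, and body or upstream peaks at 2 of the 10 and 11.3% of all.

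CpG content went with promoter peaks over all genes, and the 10 genes ranged widely in it. The ratio of observed to expected CpG in the 300 bp at the first TSS was lowest at Nanog (0.19), Esrrb (0.27), Prdm14 (0.37), Pou5f1 (0.38) and Zfp42 (0.47), intermediate at Tfcp2l1 (0.66) and Klf5 (0.74), and highest at Klf2 (0.90), Klf4 (0.97) and Sox2 (1.05). With protein-coding genes split into 4 equal parts by this ratio, a promoter peak was found in replicate 2 at 6.40%, 21.8%, 45.7% and 47.6%, from the lowest to the highest, and in replicate 1 at 3.17%, 11.0%, 24.2% and 24.5%. Of the 10 genes, 0 of 1, 2 of 4, 1 of 2 and 2 of 3 had a promoter peak in replicate 2, in the same order. Klf4, with more CpG than 90.9% of genes, and Klf5 had no promoter peak, whereas Zfp42 and Pou5f1, in the second part, had one. Nanog, Esrrb and Prdm14, without a promoter peak, were in the lower 2 parts. At the Klf4 downstream site the ratio in the 300 bp around the midpoint was 0.83 in replicate 1 and 0.79 in replicate 2. Both values of this site, outside the gene, were below the 0.97 at the Klf4 promoter, where the window was placed by the TSS.

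**Figure D3:**
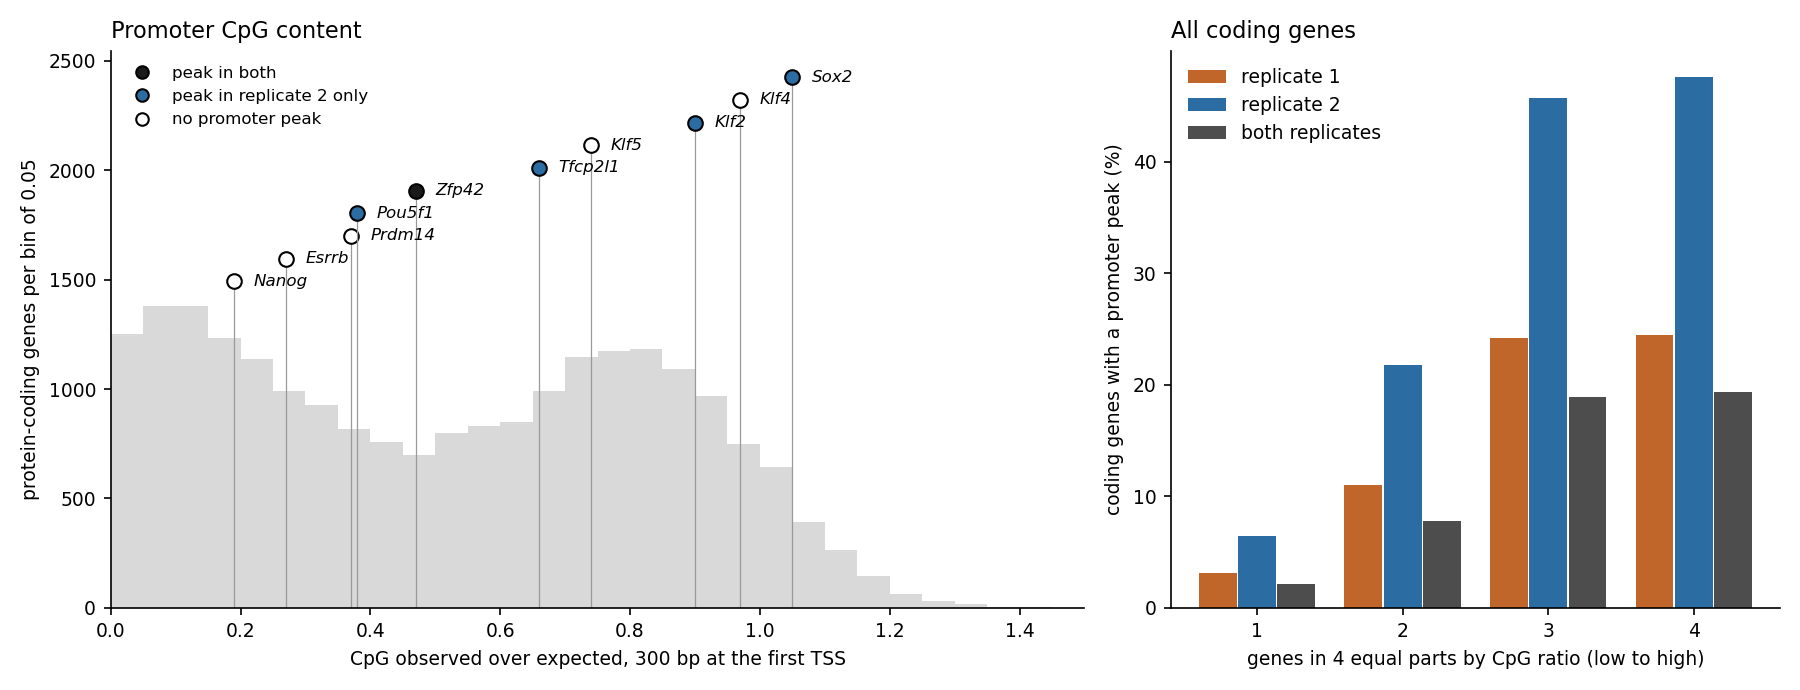
Left, histogram of the CpG observed over expected ratio at the first TSS of protein-coding genes with the 10 genes marked by their promoter peaks (filled black, both replicates; blue, replicate 2; open, none), marker height only spacing the names; right, percent of coding genes with a promoter peak in each of 4 equal parts by that ratio. Klf4, at 0.97, is the open circle farthest to the right, and Zfp42, at 0.47, is the only black one.

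Repeated sequence was measured as the share of 37-mers found elsewhere in the assembly. Reads were 37 nt long per the labels, while the study's methods give a longer read length, at which fewer positions repeat. Of the 37-mers in the promoter windows, 0% occurred elsewhere in the assembly at Nanog, Klf4 and Klf5, 0.28% at Esrrb and 5.87% at Prdm14. At promoters with a peak the values were 0% at Tfcp2l1, 0.27% at Sox2, 5.15% at Pou5f1, 6.76% at Zfp42 and 9.35% at Klf2. The ranges of promoters with and without a peak overlapped, and the part of repeated sequence in the calls was not tested.

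Of the 10 genes, 8 matched the RefSeq promoter table (GRCm38.p6, 250 bp before to 50 bp after a start). Klf5 and Prdm14 had no entry. The table has 11 promoters for these 8 genes, and a gene was counted if any of its starts had a match, as were the 16522 coding genes of the table. Zfp42 alone held the octamer, which 1.85% of coding genes hold. A GC box was found at 5 of the 8 (51.0% of all), the KLF motif at 4 (22.2%), the NFY motif at 4 (42.1%), the SOX motif at 3 (12.2%) and the TATA motif at Tfcp2l1 (14.3%). The SOX match of Pou5f1 was at its second start only. The ESRRB, STAT and YY1 motifs, held by 1.47%, 1.42% and 7.59% of coding genes, had no match in these windows. The KLF motif was present at 3 genes with a promoter peak (Zfp42, Tfcp2l1 and Pou5f1) and 1 without (Nanog), and absent at 2 with one (Sox2 and Klf2) and 2 without (Klf4 and Esrrb).

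The pathways that feed into these genes were read from lists of other genes. Of 7 genes of the LIF and STAT3 pathway, Stat3, the transcription factor that LIF activates, had a promoter peak in both replicates, with scores of 136 and 72 (percentiles 98.5 and 86.2), and no other gene of the list had one, so the share was 14.3% in each list. Of 10 WNT and GSK3 genes, 1 had a promoter peak in replicate 1 and 4 in replicate 2. The shares over all coding genes were 15.7% in replicate 1 and 30.4% in replicate 2. Gsk3b, the kinase that CHIR99021 inhibits, had one in both, with scores of 117 and 171 (percentiles 97.7 and 98.9). The Gsk3b peaks stood higher in both lists than any promoter peak of the 10 genes, while the Stat3 peak did so in replicate 1 and was below that of Klf2 in replicate 2.

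The 15 FGF and ERK genes included 3 with a promoter peak in the first list, 6 in the second and 2 in both lists. The 2 were Grb2, an adaptor of receptor signalling, with scores of 15 and 64 (percentiles 10.8 and 82.0), and Map2k1, which encodes the kinase MEK1, with scores of 13 and 35 (percentiles 4.9 and 47.6), so both were near the bottom of the replicate 1 list. Promoter peaks were called at 2 and 5 of the 15 BMP and Nodal genes, and at 2 in both lists. These were Bmpr2, a BMP receptor (scores of 51 and 45, percentiles 80.6 and 64.5), and Smad4, the shared SMAD partner (28 and 38, percentiles 41.8 and 54.6). The counts of both lists in replicate 2, 40.0% and 33.3%, were within 10 percentage points of the 30.4% of all genes.

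Of 28 further pluripotency factors and markers, promoter peaks were called at 2 in the first list, 5 in the second and none in both lists. Those of the first list were Zfp281 and Trim28, named after their values were seen. In the gene body or upstream, 14 of the 28 had a peak in replicate 2, against 23.8% of all genes. In replicate 1, 3 of the 28 had one, against 12.1% of all genes. Longer genes have more room for such peaks, and the shares of these lists were not adjusted for gene length. Body or upstream peaks in replicate 2 were found at 50.0% of these genes, at 4 of the 10, and in other lists at 46.7% of FGF and ERK genes, 42.3% of paralogs, 33.3% of BMP and Nodal genes, 28.6% of LIF and STAT3 genes and 2 of 10 WNT and GSK3 genes. Of 9 formative and primed markers none had a promoter peak in either replicate, and 3 had a body or upstream peak in replicate 2. Over all 132 genes of the lists, the share with a promoter peak was 14.4% (replicate 1), 31.8% (replicate 2) and 9.85% (both), within 3 percentage points of the 15.7%, 30.4% and 12.1% of all coding genes.

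**Figure D4:**
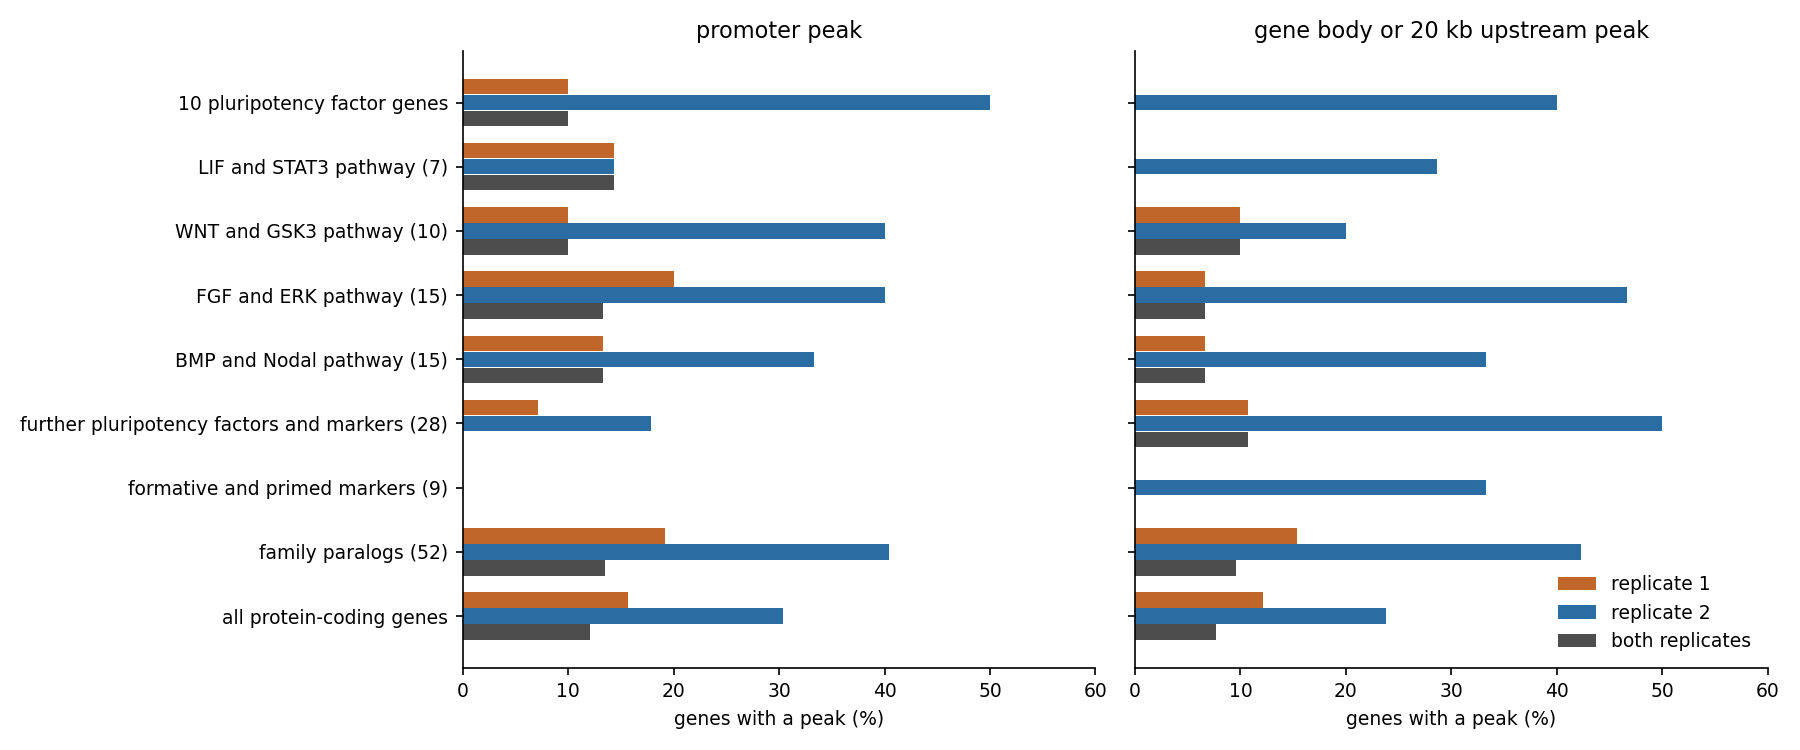
Percent of genes with a promoter peak (left) and with a gene body or upstream peak (right) for the 10 genes, the lists of other genes (number of genes in brackets) and all protein-coding genes, by replicate and in both replicates. The 10 genes have 5 promoter peaks in replicate 2 and 1 in replicate 1, and no formative or primed marker has one.

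Among 52 paralogs of the 10 factors, promoter peaks were called at 10 and 21, with 7 common to both replicates. These are 19.2%, 40.4% and 13.5% of the list, beside 15.7%, 30.4% and 12.1% of all coding genes. Those in both lists included Klf7 (scores of 86 and 124, percentiles 94.8 and 96.7), Klf10 (43 and 75, percentiles 71.5 and 87.4) and Prdm4 (31 and 48, percentiles 48.2 and 68.7). Split by family, after the values were seen, the replicate 2 list had a promoter peak at 9 of 14 KLF, 3 of 14 SOX, 1 of 8 POU, 0 of 2 ESRR, 3 of 5 CP2 and Grainyhead, 4 of 7 PRDM and 1 of 2 YY paralogs, beside 30.4% of all genes. In the same order of families, replicate 1 had 5, 1, 0, 1, 0, 3 and 0, and both replicates together 4, 0, 0, 0, 0, 3 and 0. Whether the families differed was not tested. In replicate 2, Klf4 and Klf5 were without a promoter peak, as were 5 of the 14 KLF paralogs, while Klf2 and the other 9 had one. Within the PRDM family, Prdm14 was without one, and Prdm4 had one in both replicates. Neither paralog of Esrrb had one in replicate 2, although Esrra had one in replicate 1.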

How the data were processed

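SRCAP-YA was profiled by CUT&Tag in 2 samples of 1 group. Per the labels, STAR, Picard and MACS2 were used with mm10, and the study's reporting form gives versions, with another major release of MACS. The authors deposited a peak list per sample with a whole-number score, read as 10 times −log10 q. The study's methods, under 1 heading for ChIP-seq and CUT&Tag, state unique alignment, removal of duplicates, a filter for the nuclear chromosomes, exclusion of the ENCODE blacklist and scaling to the Drosophila spike-in. Each list holds 6 mitochondrial peaks, outside that filter, so which steps these lists went through is uncertain, as is the use of a control library. No values but the score give peak strength, so depth and its precision are unknown.

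Peaks were assigned to genes of GENCODE mouse release 21 by an overlap of at least 1 bp. Promoter windows ran from 1000 bp upstream to 500 bp downstream of any TSS, and further peaks lay in the body or within 20 kb upstream, outside these windows. The density counts a peak once for each gene. Percentiles count tied scores at their middle. All 10 genes were named with every peak in range. Of other genes, those with a promoter peak in both replicates were named, at most 4 a list by the lower percentile. Some genes of these lists are not reported here. The members and lists were chosen with earlier results of these data known. No test was possible with 1 group. Alternatives covered the window, transcripts, overlap, range, score, list length and each replicate. On simulated data with 2000 genes, 700 of 700 planted peaks were assigned. Python 3.11.15, pandas 2.3.3, pysam 0.24.0 and samtools 1.23.1 were used.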

Additional observations from a re-analysis of the deposited data

How the results depend on the processing

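The text gives 8 counts of the 10 genes, and 41 alternatives were tried. The share of all coding genes under each stands in brackets. Of these, 29 left the count within 1.5-fold and 12 moved it. At a score of at least 50, a cut that is not equally strict in lists of unknown depth, the promoter counts were 0 (4.24%) and 3 (13.1%) in the 2 lists and 0 (3.02%) for both together, and that of body or upstream peaks in replicate 2 was 1 (6.59%), Nanog. With a TSS required inside the peak, 3 promoters were left in replicate 2 (20.6%). With 5 kb upstream in place of 20 kb, 2 genes had a further peak in replicate 2 (12.8%), and with lists of equal length also 2 (11.3%). With 20 kb downstream added, the counts were 1 (20.6%) and 8 (38.2%) in the 2 lists and 1 (14.9%) for genes in both, the last being Klf4. With at least 50% of the peak inside the window, 4 promoters were left in replicate 2 (29.5%), without Pou5f1. These shifts follow from the construction of the alternatives, which remove or add peaks. Without replicate 2, 1 gene had a promoter peak (15.7%) and 0 had a further peak (12.1%). Without replicate 1, 5 genes had a promoter peak (30.4%) and 4 had a further peak (23.8%). So 4 of the 5 promoter genes and all further peaks rest on replicate 2. No paired analysis was possible because both samples are of 1 group. Depth is unknown, which limits every statement on genes called in 1 replicate or in none.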
